A study of Mus musculus with 6 samples.

Results

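The Slc22 genes of cultured mouse islets were examined as a family of organic ion transporters. The 9 genes were chosen by symbol from the array's annotation: Slc22a8, Slc22a6, Slc22a7, Slc22a2, Slc22a3, Slc22a4, Slc22a17, Slc22a18 and Slc22a23. Values were analysed for 8 of them, on 11 probe sets, among 18193 genes in all, and Slc22a3 was not analysed here. A gene read by several sets of short probes took its main value from the set with the highest mean over all arrays. Pancreatic islets had been isolated from male CD1 mice aged 8 weeks and kept overnight in RPMI medium. They were then exposed for 24 hours to vehicle, 0.1% ethanol, or to CMPF at 200 uM, and each group held 3 arrays. CMPF, a furan fatty acid metabolite, is an organic anion that circulates in blood. CD1 is an outbred stock, and the labels do not say how many mice gave the islets of 1 array or whether islets were pooled.

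SLC22 proteins are membrane carriers that move small charged molecules into or out of cells. One branch of the family carries organic anions and usually exchanges them for dicarboxylates such as alpha-ketoglutarate, another carries organic cations, and others carry zwitterions such as carnitine and ergothioneine. The anion and cation carriers are best known from the kidney tubule and the liver, where they clear drugs, toxins and metabolites. Slc22a8 encodes OAT3, an anion exchanger of the kidney tubule that has been reported as the route by which CMPF enters beta cells, so the comparison asks at what level islets carry this gene and its relatives and whether CMPF changes them.

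Among the 8 members, the 5 carriers of anions, cations and ergothioneine were dim, and the 3 with other or undefined roles were bright. Slc22a8, Slc22a6 and Slc22a4 had means below the lower quartile of all genes, 4.53 log2 units, and Slc22a7 and Slc22a2 lay within 0.24 units above it. Slc22a17, Slc22a18 and Slc22a23 lay above the median of all genes, 6.42. None of the 8 genes passed the limma threshold with CMPF, an adjusted p of 0.05 over all genes, and no other gene did either: the count was 0 of 8 members against 0% of all 18193 genes. The largest difference among the members was that of Slc22a8, -0.21 log2 units with CMPF (95% interval -0.52 to 0.09).

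The stretches of DNA before the start sites of the dim anion carrier pair and of the brightest members show a difference in base composition. Slc22a8 and Slc22a6 are neighbouring coding genes, whereas Slc22a17 and Slc22a23 lie elsewhere. Each line gives the 250 bases upstream of the RefSeq start (GRCm38.p6), 5′ to 3′ on the gene's strand, with CG dinucleotides in capitals. The stretches are chr19:8592932-8593181 on the plus strand for Slc22a8, chr19:8617746-8617995 on the plus strand for Slc22a6, chr14:54913133-54913382 on the minus strand for Slc22a17 and chr13:34345219-34345468 on the minus strand for Slc22a23.
Slc22a8: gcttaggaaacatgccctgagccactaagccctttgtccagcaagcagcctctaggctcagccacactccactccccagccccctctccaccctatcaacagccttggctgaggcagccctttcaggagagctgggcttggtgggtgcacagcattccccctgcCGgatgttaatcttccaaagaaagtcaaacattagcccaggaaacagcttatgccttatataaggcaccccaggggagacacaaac
Slc22a6: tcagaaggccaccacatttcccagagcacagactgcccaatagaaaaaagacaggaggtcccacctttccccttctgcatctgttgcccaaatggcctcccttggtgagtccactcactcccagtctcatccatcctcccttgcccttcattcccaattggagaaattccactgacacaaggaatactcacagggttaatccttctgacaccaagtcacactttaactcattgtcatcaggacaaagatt
Slc22a17: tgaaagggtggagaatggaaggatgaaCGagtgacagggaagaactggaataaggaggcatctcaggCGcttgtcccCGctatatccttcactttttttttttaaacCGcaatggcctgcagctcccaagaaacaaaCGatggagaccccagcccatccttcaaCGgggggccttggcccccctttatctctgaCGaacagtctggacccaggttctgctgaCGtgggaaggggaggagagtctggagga
Slc22a23: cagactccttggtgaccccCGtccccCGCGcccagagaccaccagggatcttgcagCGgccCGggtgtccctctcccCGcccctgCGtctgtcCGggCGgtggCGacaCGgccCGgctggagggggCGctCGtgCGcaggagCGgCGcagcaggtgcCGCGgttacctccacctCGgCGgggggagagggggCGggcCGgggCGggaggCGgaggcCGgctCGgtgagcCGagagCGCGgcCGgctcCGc

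These stretches held 1 CG in Slc22a8, 0 in Slc22a6, 8 in Slc22a17 and 32 in Slc22a23. Over the 300 bases of the RefSeq promoter table, which add the 50 bases after the start, the counts were 1, 2, 13 and 38. Among all 14452 measured genes with an entry, the median was 17 CG dinucleotides. It was 6 for the 3462 genes below the lower quartile of level and 22 for the 7448 genes above the median level. Not all members followed that order. Slc22a17 and Slc22a18, which were bright, held 13 and 2, under the median of all genes. Slc22a4, which was dim, held 29, and Slc22a2 held 8. Slc22a7 had no entry. CG-rich promoters are typical of broadly expressed genes and CG-poor ones of genes restricted to a few tissues. The counts are a description of these windows.

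The deposited values are log2 signals, and the median over all probe sets lay between 5.08 and 5.15 on the 6 arrays. They carry no detection call, and probe sets differ in how strongly they bind, so the order of levels between genes is an order of signal and not of transcript number. The islet hormone genes were near the top of the scale on all arrays, with Ins2, insulin, at 14.61 or more, Gcg, glucagon, at 14.30 or more and Sst, somatostatin, at 13.75 or more. Some markers of other pancreatic cells also read above the median of all genes: Cpa1, an acinar digestive enzyme, at 11.53 to 13.45 and Krt19, of ducts, at 8.97 to 10.84. So did Col1a1, of stellate cells, at 8.35 to 9.82 and Cd68, of macrophages, at 7.37 to 8.10. By mean level, 9 of 9 measured acinar, 3 of 6 duct, 7 of 9 stellate, 5 of 8 macrophage and 5 of 10 endothelial markers lay above the median. Of the endothelial markers, Pecam1 was dim at 4.56 to 5.70, and Kdr, a receptor for the vascular growth factor VEGF, read 7.45 to 8.10. The values are those of whole islets, in which fewer cells of a type and less RNA per cell cannot be told apart.

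**Figure D1:**
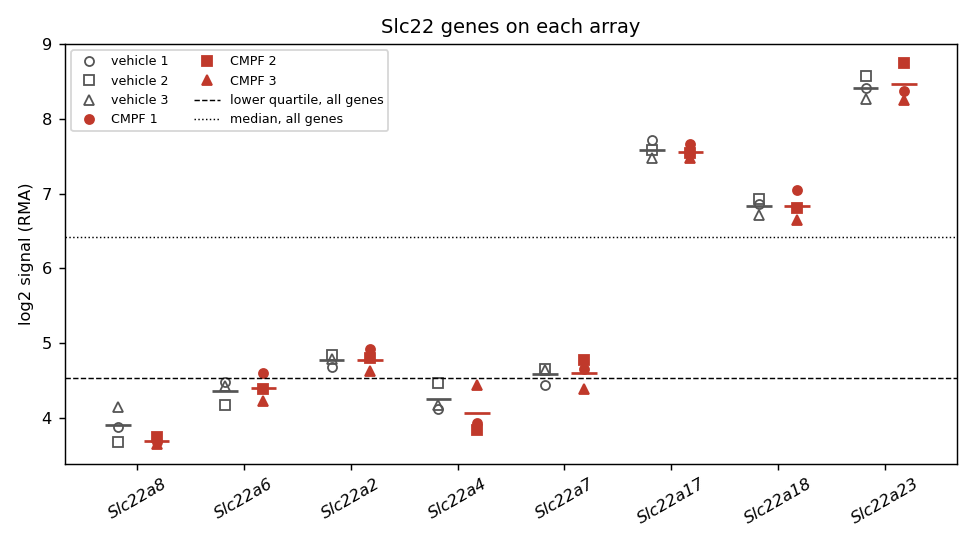
Log2 signal of the 8 measured Slc22 genes on each array, with vehicle in grey, CMPF in red, symbols for the replicate number and short lines for the group means; the horizontal lines are the lower quartile (4.53) and the median (6.42) of all genes. Slc22a17, Slc22a18 and Slc22a23 lie above the median on all 6 arrays, the other 5 genes lie below it on all 6, and in each gene the 2 groups overlap.

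Slc22a8, the OAT3 gene, was the dimmest member. It read 3.88, 3.67 and 4.14 on the vehicle arrays 1, 2 and 3 and 3.67, 3.73 and 3.64 on the CMPF arrays 1, 2 and 3. All 6 values were below the lower quartile of their own array, by 0.39 to 0.93 units, and the mean of 3.79 stood at percentile 15.3 of all genes. Vehicle 3 was the highest array and vehicle 1 the next, while vehicle 2 lay among the CMPF arrays, so the groups overlapped. Vehicle averaged 3.90 ± 0.24 (SD, n = 3), CMPF averaged 3.68 ± 0.05 (SD, n = 3), and they differed by -0.21 (SE 0.128, limma adjusted p = 0.99995; exact two-sided permutation p = 0.2, where 3 against 3 arrays can give no less than 0.1). On the linear scale the 95% interval runs from 0.70 to 1.06 times the vehicle signal, and the normalization compresses differences of dim genes. Between arrays of the same number the differences were -0.21, 0.06 and -0.50, lower with CMPF in 2 of 3. Without vehicle 3 the difference was -0.09.

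The other Slc22a8 probe set was dimmer and varied in another way. It read 3.09, 3.28 and 3.36 with vehicle and 3.28, 3.14 and 3.18 with CMPF, a difference of -0.042 (SE 0.104). Across the 6 arrays the 2 probe sets of Slc22a8 correlated at r = 0.334, a description over 6 values of the same RNA samples. Neither set showed a step between the groups, and both differences had the same sign. As a measure of how dim signals read on these arrays, 39 olfactory receptor genes, a class used by the nose and chosen here after the values were known, had mean levels from 2.84 to 5.61 with a median of 3.64. Of these, 18 lay above Slc22a8, 10 above Slc22a4, 8 above Slc22a6, 7 above Slc22a7, 5 above Slc22a2 and 0 above Slc22a17, Slc22a18 or Slc22a23.

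Slc22a6 encodes OAT1, the other classical anion exchanger of the kidney tubule, and is the coding gene next to Slc22a8. It read 4.48, 4.17 and 4.42 with vehicle and 4.60, 4.38 and 4.23 with CMPF, below the lower quartile on 5 of 6 arrays. Only CMPF 1 was above it, and the groups overlapped, with a difference of 0.045 (SE 0.131). Its second probe set was dimmer by 1.39 units, read 2.87 to 3.27 on the 6 arrays, and differed by 0.066 (SE 0.122). The 2 sets followed each other more closely than those of Slc22a8, at r = 0.864 over 6 arrays, both with their highest value on CMPF 1. Slc22a7, which encodes the anion carrier OAT2, read 4.44, 4.65 and 4.64 with vehicle and 4.65, 4.77 and 4.38 with CMPF. It stood at percentile 25.9, with 2 of 6 arrays below the lower quartile, and the difference was 0.022 (SE 0.126). In the 3 anion carriers, CMPF minus vehicle for replicate number 3 was -0.50 for Slc22a8, -0.19 for Slc22a6 and -0.26 for Slc22a7, whereas for number 2 it was above 0 in each.

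Among the cation and zwitterion carriers, Slc22a2 encodes OCT2, a carrier of organic cations such as choline. It read 4.68, 4.84 and 4.78 with vehicle and 4.92, 4.80 and 4.62 with CMPF, above the lower quartile on all 6 arrays and below the median on all 6. The 3 CMPF arrays held both its highest and its lowest value, and the difference was 0.012 (SE 0.105). Slc22a4 encodes OCTN1, a carrier of ergothioneine. It read 4.12, 4.47 and 4.18 with vehicle and 3.93, 3.84 and 4.43 with CMPF. CMPF 1 and CMPF 2 were the 2 lowest arrays and CMPF 3 the second highest, so that the groups overlapped. The difference was -0.19 (SE 0.176), and by replicate number it was -0.19, -0.63 and 0.26. Slc22a4 had the largest spread of the 8 members, with a standard deviation of 0.256 over the 6 arrays, against a median of 0.141 over all genes. Its value changed with 1 array: the difference was -0.37 without CMPF 3, -0.072 without CMPF 2 and 0.036 without both arrays numbered 2.

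The members above the median of all genes have other or undefined roles. Slc22a17 encodes a receptor for lipocalin 2, a secreted protein that binds iron-carrying siderophores. It read 7.71, 7.58 and 7.47 with vehicle and 7.66, 7.54 and 7.48 with CMPF, at percentile 66.3. In both groups array 1 was the highest and array 3 the lowest, and the 2 group means differed by -0.027 (SE 0.100; 95% interval -0.26 to 0.21). Its standard deviation over 6 arrays, 0.0975, was the smallest of the 8 members. Slc22a18 lies between Cdkn1c and Phlda2 in an imprinted gene cluster, and its transport function is not well defined. It read 6.86, 6.93 and 6.71 with vehicle and 7.05, 6.81 and 6.64 with CMPF, a difference of 0.0036 (SE 0.125). Its second probe set was dimmer by 0.84 units, and there the values were 5.97, 5.87 and 5.82 with vehicle and 6.01, 6.39 and 5.91 with CMPF. On that set CMPF was higher for all 3 replicate numbers, by 0.042, 0.52 and 0.099, and the difference was 0.22 (SE 0.136, limma adjusted p = 0.99991 over all probe sets). The 2 Slc22a18 sets correlated at r = 0.137 over the 6 arrays, so the choice of set moves this gene's difference from 0.0036 to 0.22. Of the 11 member probe sets 0 passed, against 0% of all 34945.

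Slc22a23, a member whose substrate is not established, was the brightest. It read 8.41, 8.57 and 8.26 with vehicle and 8.38, 8.75 and 8.26 with CMPF, at percentile 78.1 of all genes. The 2 arrays numbered 2 were the highest of the 6 and the 2 arrays numbered 3 the lowest, whatever the treatment. The group means were 8.42 ± 0.15 (SD, n = 3) and 8.46 ± 0.26 (SD, n = 3), a difference of 0.047 (SE 0.149; 95% interval -0.30 to 0.40). With the replicate number as a block the standard error was 0.0829 and the adjusted p was 0.981.

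**Figure D2:**
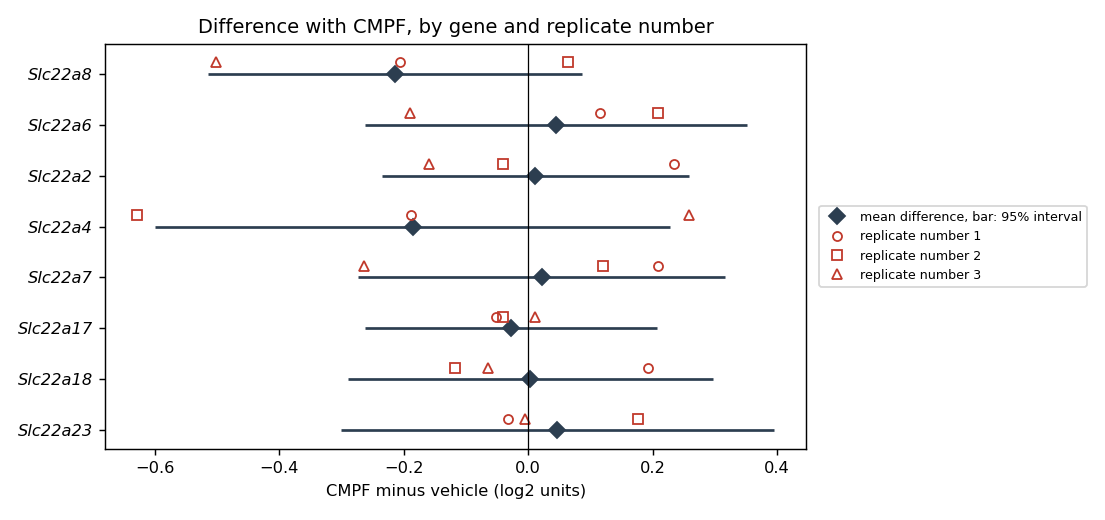
CMPF minus vehicle in log2 units for each of the 8 genes: diamonds are the differences of the group means with 95% intervals from limma (3 against 3 arrays), and open symbols are the differences between arrays of the same replicate number. All 8 intervals include 0, and in no gene do the 3 open symbols all lie on the same side of 0.

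Counted over the 8 members, 5 differences were above 0 and the median was 0.0076, next to 0.0018 over all genes. No member had groups that did not overlap, where 4.52% of all genes did. No member was higher for all 3 replicate numbers, where 11.8% of genes were, and none was lower for all 3, where 11.1% were. Before adjustment, limma's p was under 0.05 for 0 members and for 1.13% of all genes, and with the replicate block for 0 members and for 3.8% of genes. With the block 0% of genes passed the adjusted threshold, and the smallest adjusted p was 0.979. Nothing in the labels ties the replicate numbers to separate mice or cultures, and the spread behind these p-values may be technical.

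Another 13 Slc22 genes were measured, and 6 of them lay below the lower quartile and 3 above the median. The brightest was Slc22a5, which encodes the carnitine transporter OCTN2. It read 7.48, 7.65 and 7.40 with vehicle and 7.41, 7.65 and 7.51 with CMPF, a difference of 0.014 (SE 0.108). Slc22a5 lies in the same gene cluster as Slc22a4 and Slc22a21, and by its brighter probe set Slc22a5 stood at percentile 65.5 and Slc22a4 at 20.3. The other Slc22a5 set had a mean of 4.10, beside 4.16 for Slc22a4, so this gap depends on the choice of set. The others above the median were Slc22a12, the urate transporter, with a mean of 6.66 and a difference of -0.017 (SE 0.0837), and Slc22a15, with a mean of 6.48 and a difference of 0.013 (SE 0.145). Their dimmer probe sets lay below the median, with means of 5.63 for Slc22a12 and 3.62 for Slc22a15. On a list of 14 organic anion carriers of the family, which includes Slc22a8, Slc22a6 and Slc22a7, 11 were measured and 7 of them lay below the lower quartile. The differences on this list ran from -0.21 to 0.11 with a median of -0.017, and 0 passed. On the list of 8 cation and carnitine carriers, 6 were measured, their median was 0.012 and 0 passed.

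**Figure D3:**
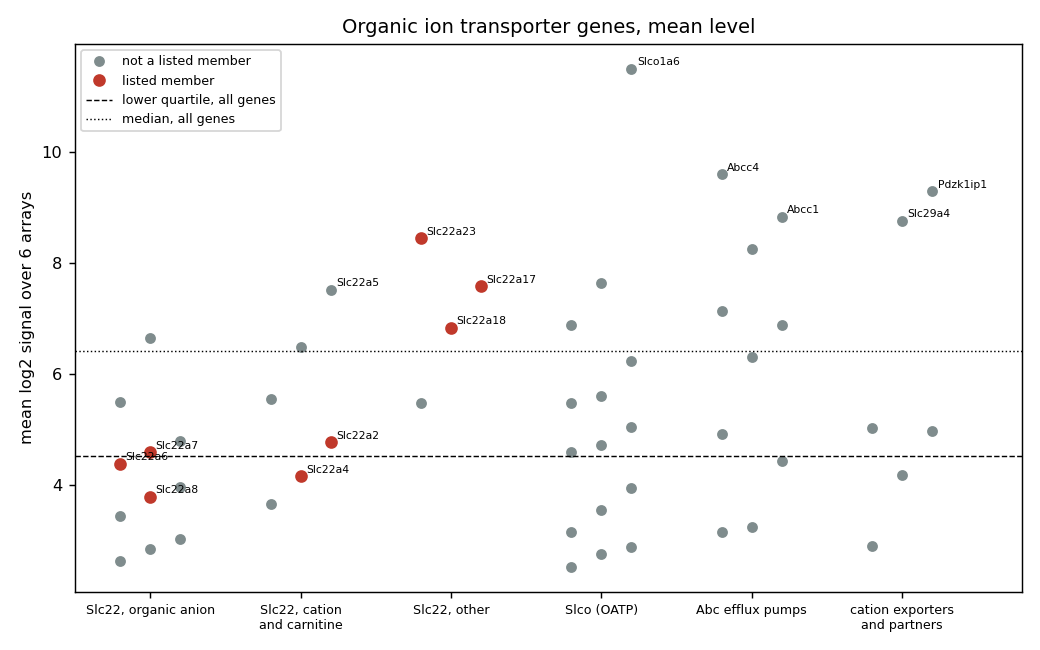
Mean log2 signal over 6 arrays of each measured gene on 6 lists of organic ion transporters and partners, with listed Slc22 members in red; the horizontal lines are the lower quartile (4.53) and the median (6.42) of all genes. The 3 measured anion carriers among the members and Slc22a2 and Slc22a4 lie near or below the lower quartile, and Slco1a6 is the highest point at 11.49.

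Some other genes that move organic anions reached higher signals than Slc22a23, the brightest measured Slc22 gene. The OATP transporters, encoded by the Slco genes, take up bulky organic anions without the dicarboxylate exchange. Of 15 measured, 6 lay below the lower quartile and 3 above the median. Slco1a6 was the brightest of them, at 11.45, 11.58 and 11.57 with vehicle and 11.41, 11.41 and 11.49 with CMPF. Its CMPF array was the lower one for all 3 replicate numbers, but the groups overlapped, and the difference was -0.098 (SE 0.0847). Slco3a1 had a mean of 7.63 and a difference of 0.048 (SE 0.102), and Slco2b1 a mean of 6.89 and a difference of 0.19 (SE 0.182). Apart from Slco1a6, the OATP genes had means below that of Slc22a23, 8.44. On the OATP list 11 of 15 differences were above 0, the median was 0.11, and 0 passed the threshold.

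The ATP-driven efflux pumps, which export organic anions and drugs, had 5 of 10 measured genes above the median. Abcc4, the pump MRP4, read 9.60, 9.61 and 9.64 with vehicle and 9.51, 9.61 and 9.55 with CMPF, a difference of -0.061 (SE 0.0797). The mean of Abcc1, MRP1, was 8.83 and that of Abcc5, MRP5, was 8.24, with differences of 0.12 (SE 0.0927) and 0.051 (SE 0.141). Abcg2 and Abcb1a, pumps of drugs and other compounds, had means of 7.13 and 6.87 and differences of -0.057 (SE 0.123) and -0.15 (SE 0.187). Abcb1b, a drug efflux pump, was the 1 gene whose groups did not overlap among the 58 measured on the transporter and factor lists, 1.72% of them against 4.52% of all genes. It read 4.62, 4.44 and 4.53 with vehicle and 4.29, 4.35 and 4.42 with CMPF, with a mean below the lower quartile of all genes and a difference of -0.17 (SE 0.0890, limma adjusted p = 0.99995). Its other, dimmer probe set overlapped between groups and differed the other way, by 0.075 (SE 0.185), and the mean of both sets gave -0.050 (SE 0.115). The pump list had a median of -0.054, and 0 of 10 passed.

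Partners of the carriers were mixed in level. Slc29a4, a monoamine and cation transporter, had a mean of 8.76 and a difference of 0.019 (SE 0.121), and Pdzk1ip1, a small membrane protein that binds the scaffold Pdzk1, had a mean of 9.29 and a difference of -0.11 (SE 0.0985). Slc13a3, the sodium-coupled dicarboxylate importer that feeds the anion exchangers in the kidney, had a mean of 4.97. Of the 6 measured genes on that list 0 passed. Among 6 measured transcription factors known to act on carrier genes in liver and kidney, 0 passed and 2 lay above the median. Hnf4a, a regulator of liver and kidney genes, had a mean of 7.93 and a difference of 0.048 (SE 0.243), and Ahr, the dioxin receptor, had a mean of 6.70 and a difference of -0.20 (SE 0.175).

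The genes whose signals followed Slc22a8 most closely over the 6 arrays, among 13645 genes at or above the lower quartile, were Kifc3 (r = 0.986, rho = 0.986), Neil1 (r = 0.958, rho = 0.829) and Mtss1 (r = 0.956, rho = 0.829). An r of at least 0.95 was reached by 4 genes. For Slc22a23 they were Myrf (r = 0.999, rho = 0.943), Zscan21 (r = 0.998, rho = 0.943) and Rcc1l (r = 0.997, rho = 0.943), and 241 genes reached 0.95. With 6 arrays and this many genes such values are a description of the same arrays. The 6 points share their pairing by replicate number.

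Acinar markers differed between arrays in an order close to that of Slc22a23. The mean log2 signal of 9 acinar markers was 11.72, 12.67 and 10.72 on the vehicle arrays and 12.01, 12.76 and 11.64 on the CMPF arrays. It was higher with CMPF for all 3 replicate numbers, but the groups overlapped. All 9 markers had a higher mean with CMPF, by a median of 0.43, and 0 passed the threshold. Of the 9, 7 were higher for all 3 replicate numbers, against 11.8% of all genes, and 6 had an unadjusted limma p under 0.05 with the replicate block, against 3.8% of all genes. Each of these markers was lowest on vehicle 3 and highest on vehicle 2 or CMPF 2. They varied together over the same arrays, so these counts are a description and not a tally of independent genes. Vehicle 2 and CMPF 2 were the highest arrays both for the acinar mean and for Slc22a23. Over the 6 arrays Slc22a23 correlated with it at r = 0.867, a value reached by 4.4% of all genes, and Slc22a8 at r = -0.75, with 7.39% of genes at or below that. Vehicle 3 had the lowest acinar mean and the highest Slc22a8 signal. Outside the members, Slc22a5 correlated with the acinar mean at r = 0.845 and Slc22a15 at r = -0.822, so values of this size were not particular to Slc22a23.

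The other marker lists also varied between arrays. Like the acinar mean, their mean signals overlapped between the groups, and 0 of their markers passed the threshold. On the endothelial list 9 of 10 markers had a higher mean with CMPF, with a median difference of 0.23 over the list. Of the 10, 5 were higher for all 3 replicate numbers, against 11.8% of all genes. An unadjusted limma p under 0.05 with the block was found for 5, against 3.8% of all genes. These markers too were read on the same arrays, and their counts are not a tally of independent genes. The endothelial mean was 5.59, 5.89 and 6.03 on the vehicle arrays and 5.61, 6.20 and 6.29 on the CMPF arrays. Like the acinar mean, it was higher with CMPF for all 3 replicate numbers. On the stellate list 0 of 9 markers had a higher mean with CMPF, with a median difference of -0.23, but 0 were lower for all 3 replicate numbers, and the list mean ran from 8.66 to 9.29 with vehicle and from 8.25 to 9.59 with CMPF. On the beta cell list 2 of 8 were higher, with a median of -0.046 and a list mean of 11.38 to 11.77 with vehicle and 11.25 to 11.87 with CMPF. The duct list had 4 of 6 higher, with a median of 0.071. For the macrophage list it was 3 of 8, with a median of -0.051, and for the alpha, delta and PP cell list 2 of 5, with a median of -0.022. Against these lists Slc22a17 correlated at r = -0.896 with the endothelial mean and at 0.84 with the beta cell mean, Slc22a6 at 0.843 with the beta cell mean, and Slc22a4 at 0.839 with the macrophage mean and 0.812 with the stellate mean. Of the 56 pairs of a member and 1 of the 7 marker lists, 6 reached a correlation of 0.8 in size, while 11.5% of the pairs over all genes did. The members' share lies near that background. The part of any of these cell types in the signals of the members was not tested.

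**Figure D4:**
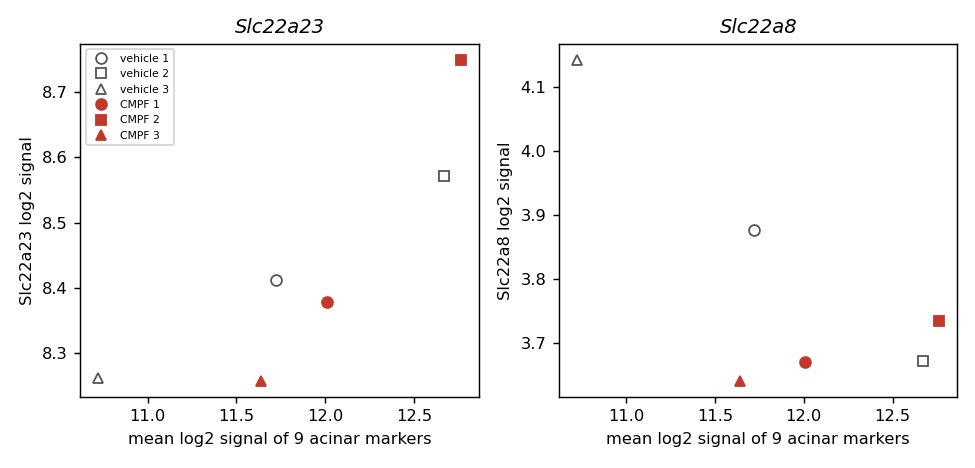
Log2 signal of Slc22a23 (left) and Slc22a8 (right) against the mean log2 signal of 9 acinar markers, 1 point per array, with vehicle open and grey, CMPF filled and red, and symbols for the replicate number. Slc22a23 is highest on vehicle 2 and CMPF 2, the 2 arrays with the highest acinar mean, and Slc22a8 is highest on vehicle 3, the array with the lowest.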

How the data were processed

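RNA of 6 islet samples, 3 with vehicle and 3 with CMPF, was read on an Affymetrix mouse 3′ array. The authors deposited log2 values made with RMA in Expression Console 1.1 of Affymetrix, as the submitters' processing notes list it, with settings not given in the sources used here. RMA corrects background, equalises the distributions of the arrays and summarises each probe set, which compresses differences of dim genes. Of 45101 probe sets, 64 controls, 932 with several genes and 9160 with no listed gene were left out, which left 34945 probe sets and 18193 genes. Names came from the platform annotation, and 34741 probe sets matched RefSeq (GRCm38.p6) by Entrez ID. No filter on dim genes was applied.

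CMPF was compared with vehicle with lmFit and eBayes of limma 3.58.1 (R 4.3.3), in two-sided tests whose p-values were adjusted by Benjamini-Hochberg over all genes and called under 0.05. Differences are CMPF minus vehicle. The number of arrays limits the precision. Across genes, same-numbered arrays of the 2 groups deviated together from their group means (r from 0.488 to 0.638), and differently numbered ones did not (-0.555 to 0.0885). Deviations from a group mean cancel out within the group, so the second range follows in part from the first. On this basis alone the numbers were treated as pairs, in the replicate block and in the differences between same-numbered arrays. The main fit was unpaired, as were its standard errors, intervals and adjusted p-values. The fit was tested on simulated data, where it recovered 26% of differences of 0.5 log2 units, the smallest size simulated, and 88% of those of 1. Genes given with values are the members, genes of the transporter lists above the median level or without overlap between groups, the 3 genes most correlated with Slc22a8 and with the brightest member, and 8 cell markers. Slc13a3, Kdr, Slc22a5 and Slc22a15 beside the acinar mean, the olfactory receptor genes and Slc22a29 were chosen after their values were seen. The members and lists were chosen with earlier results of these data known. Alternatives were the replicate block, centring on medians, quantile normalization again, means over probe sets, filters on dim genes, trend and robust eBayes, array weights and leaving out arrays.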

Additional observations from a re-analysis of the deposited data

How the results depend on the processing

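The count of members past the threshold was 0 under the 17 alternatives tried, as was the count of all genes, and the count of member probe sets was 0 under the 11 tried for them. With the replicate number as a block the members' count was again 0, with a difference of -0.21 for Slc22a8 (SE 0.119, adjusted p = 0.979), and the block changed no call. The number of members below the lower quartile was 3, and 1 when the quartile was taken over all single-gene probe sets (4.01) rather than over genes. Without any 1 array it stayed at 3. Signs of small differences turned with the setting. Median centring gave -0.00014 for Slc22a18, the second quantile normalization -0.0058 for Slc22a2, and array weights -0.031 for Slc22a6, -0.012 for Slc22a18 and -0.0015 for Slc29a4. Probe set means gave 0.0068 for Slc22a12, -0.0092 for Slc22a5 and -0.0067 for Slco3a1. Leaving out 1 array, or both arrays of 1 number with the block (chosen after seeing the data), gave differences of -0.053 to 0.16 for Slc22a6, -0.10 to 0.097 for Slc22a2, -0.41 to 0.036 for Slc22a4, -0.072 to 0.16 for Slc22a7, -0.086 to 0.036 for Slc22a17, -0.10 to 0.099 for Slc22a18 and -0.096 to 0.15 for Slc22a23 among the members. Outside them it gave -0.075 to 0.020 for Slc22a12, -0.051 to 0.086 for Slc22a5, -0.10 to 0.13 for Slc22a15, -0.027 to 0.11 for Slco3a1, -0.034 to 0.19 for Abcc5, -0.18 to 0.028 for Abcg2, -0.070 to 0.13 for Slc29a4 and -0.17 to 0.26 for Hnf4a. Slc22a8 kept its sign in all of these, from -0.35 to -0.071. Other genes kept their sign there but not their size: 0.0076 to 0.31 for Slco2b1, lowest without vehicle 2, -0.31 to -0.0012 for Abcb1a, nearest 0 without CMPF 1, -0.42 to -0.062 for Ahr, nearest 0 without vehicle 2, -0.16 to -0.035 for Pdzk1ip1, nearest 0 without CMPF 2, -0.22 to -0.10 for Abcb1b, -0.14 to -0.061 for Slco1a6, 0.091 to 0.18 for Abcc1 and -0.093 to -0.039 for Abcc4. Means over probe sets moved the difference to -0.13 for Slc22a8, 0.11 for Slc22a18 and Slco2b1, -0.23 for Abcb1a, -0.050 for Abcb1b, 0.12 for Slc29a4, -0.059 for Pdzk1ip1, 0.0028 for Hnf4a and -0.066 for Ahr, and array weights moved it to -0.079 for Slc22a4 and -0.021 for Abcb1a. The cause of the turned signs was not tested. The 2 filters on dim genes left no value for genes below them, Slc22a8, Slc22a6 and Slc22a4 among them. Depth in the form of signal over background limits the 5 dim members, whose signals carry no detection call.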

Other observations

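Slc22a29, of the anion carrier cluster that also holds Slc22a8 and Slc22a6, had an uneven pattern over the arrays. Its single probe set, of a kind whose probes can also bind related transcripts, read 3.67, 4.78 and 3.53 with vehicle and 3.28, 5.19 and 3.36 with CMPF. The 2 arrays numbered 2 lay more than 1 unit above the other 4, and the same arrays had the highest acinar marker mean. Over the 6 arrays its correlation with the acinar mean was r = 0.764, a value that 9.43% of all genes reached.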
